A study of Macaca mulatta with 14 samples.

Results

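The genes described here encode the ligands and receptors of axon guidance: ephrins and their Eph receptors, semaphorins with their plexin and neuropilin receptors, netrins with DCC and the UNC5 receptors, draxin, and slits with the ROBO receptors. They were chosen by gene symbol alone, and 69 of the 33737 loci of the expression table carry such a symbol. PLXNA2 is 1 of the labels left without a value when a shift of the table was undone, so 68 genes were used, 35 ligands and 33 receptors, of which 58 reached the minimum level of the test (1 FPKM in at least 2 libraries). FPKM counts fragments relative to transcript length and library size, so levels of different genes can be compared per length.

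These genes steer migrating cells and growing axons. A ligand on a neighbouring cell or in the matrix binds its receptor, and the receptor changes the cytoskeleton through small GTPases, so that the cell is repelled, attracted or held. The same molecules keep cell populations apart in the early neural tube and are used by fibroblasts, vessels and the neural crest. Ephrins of the A class are tethered to the membrane by a lipid anchor and those of the B class span it, so both need contact between cells, whereas class 3 semaphorins, netrins, slits and draxin are secreted.

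The study followed the conversion of rhesus monkey fibroblasts to neuroepithelial stem cells (NESCs), proliferating progenitors of the neural epithelium, by RNA sequencing of 7 cell lines with 2 libraries each. The earlier lines are RF-P3, ear skin fibroblasts of male fetuses at embryonic day 65 grown with serum and no retrovirus, and 2 stages of induction, named RF-iN-d5 after day 5 and RF-iN-d11 after day 11, which had been infected with retroviruses for OCT4, SOX2 and KLF4 and moved to serum-free medium. The NESC lines are CHIR-P6 and CHIR-P23, epithelial cells at passages 6 and 23, and the clones C8-P7 and A9-P7, each a colony grown from 1 cell of the passage 23 culture. The labels do not say which fetus a line came from. All 6 lines other than RF-P3 therefore carry the retroviral factors, and by the sample labels they were kept with CHIR99021 at 3 µM, an inhibitor of GSK3, SB431542 at 5 µM, an inhibitor of TGF-beta type I receptors, and bFGF at 10 ng/ml, although the study's methods text does not list CHIR99021 for the NESC medium. Y27632, a kinase inhibitor, and valproic acid were present only in the first days, and LIF at 1000 U/ml only in the NESC medium. By the study's methods Y27632 was removed on day 5 and valproic acid on day 7. RF-iN-d5 was thus collected before valproic acid was withdrawn, and RF-iN-d11 after both were gone. Drug exposure therefore changed along with the stage from RF-P3 to RF-iN-d5 and from there to RF-iN-d11, and cannot be told apart from it. Medium, passage and the NESC state changed together and cannot be told apart.

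Library totals were 571041 to 697718 FPKM, and the relative depth read from the steps between low values ran from 1 in RF-P3 to 5.30 in A9-P7, with CHIR-P23 at 4.74 and the other lines at 1.27 to 1.54, so that low values are more certain in CHIR-P23 and A9-P7. Each line has 1 averaged value here, because its libraries were closer to each other than independent draws of fragments would be (squared difference over sum of counts 0.109 to 0.142, where independent draws give about 1). For the 58 genes, the largest gap between both libraries of a line at 1 FPKM or more had a median of 4.34% of the level (0.668% to 16.1%). The labels matched the summed levels of marker genes. That of 10 fibroblast markers was 2928 to 6384 FPKM in the earlier lines and 13.7 to 60.01 FPKM in the NESC lines. For 10 neuroepithelial markers it was 124 to 199.9 and 446 to 1186 FPKM. SOX1 and SOX3 of the latter list were still at 0.275 and 0.04997 FPKM in CHIR-P6, against 3.40 to 11.9 and 36.7 to 75.4 FPKM in the later NESC lines. Markers of neural crest, blood and epidermis summed to at most 26.4, 4.87 and 7.58 FPKM in any line, with SOX10, PTPRC and TP63 under 1 FPKM throughout.

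The 4 NESC lines were compared with the 3 earlier ones by limma, applied to log2(FPKM + 1) of the line averages. A call required a p under 0.05 after Benjamini-Hochberg adjustment over all 15024 genes tested, together with a log2 fold change of 1 or more in either direction. Of the 58 guidance genes tested, 11 rose and 11 fell, 19.0% in each direction, against 7.57% and 13.2% of all genes tested, so that 37.9% were called in either direction against 20.8%. Their median log2 difference was 0.24, and that of all genes was -0.02. Ligands made up 7 of the risen and 8 of the fallen genes (of 32 tested), and receptors 4 and 3 (of 26 tested). In 16 genes all NESC lines lay above all earlier lines and in 14 they lay below, 27.6% and 24.1% of the guidance genes, beside 21.1% and 24.7% of all genes. Since the lines are successive stages of a conversion, these p-values measure the spread between lines and not between independent conversions, and fold changes on this scale understate the change of genes with low levels. Fewer cells of a type and less RNA per cell cannot be told apart in these bulk samples.

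**Figure D1:**
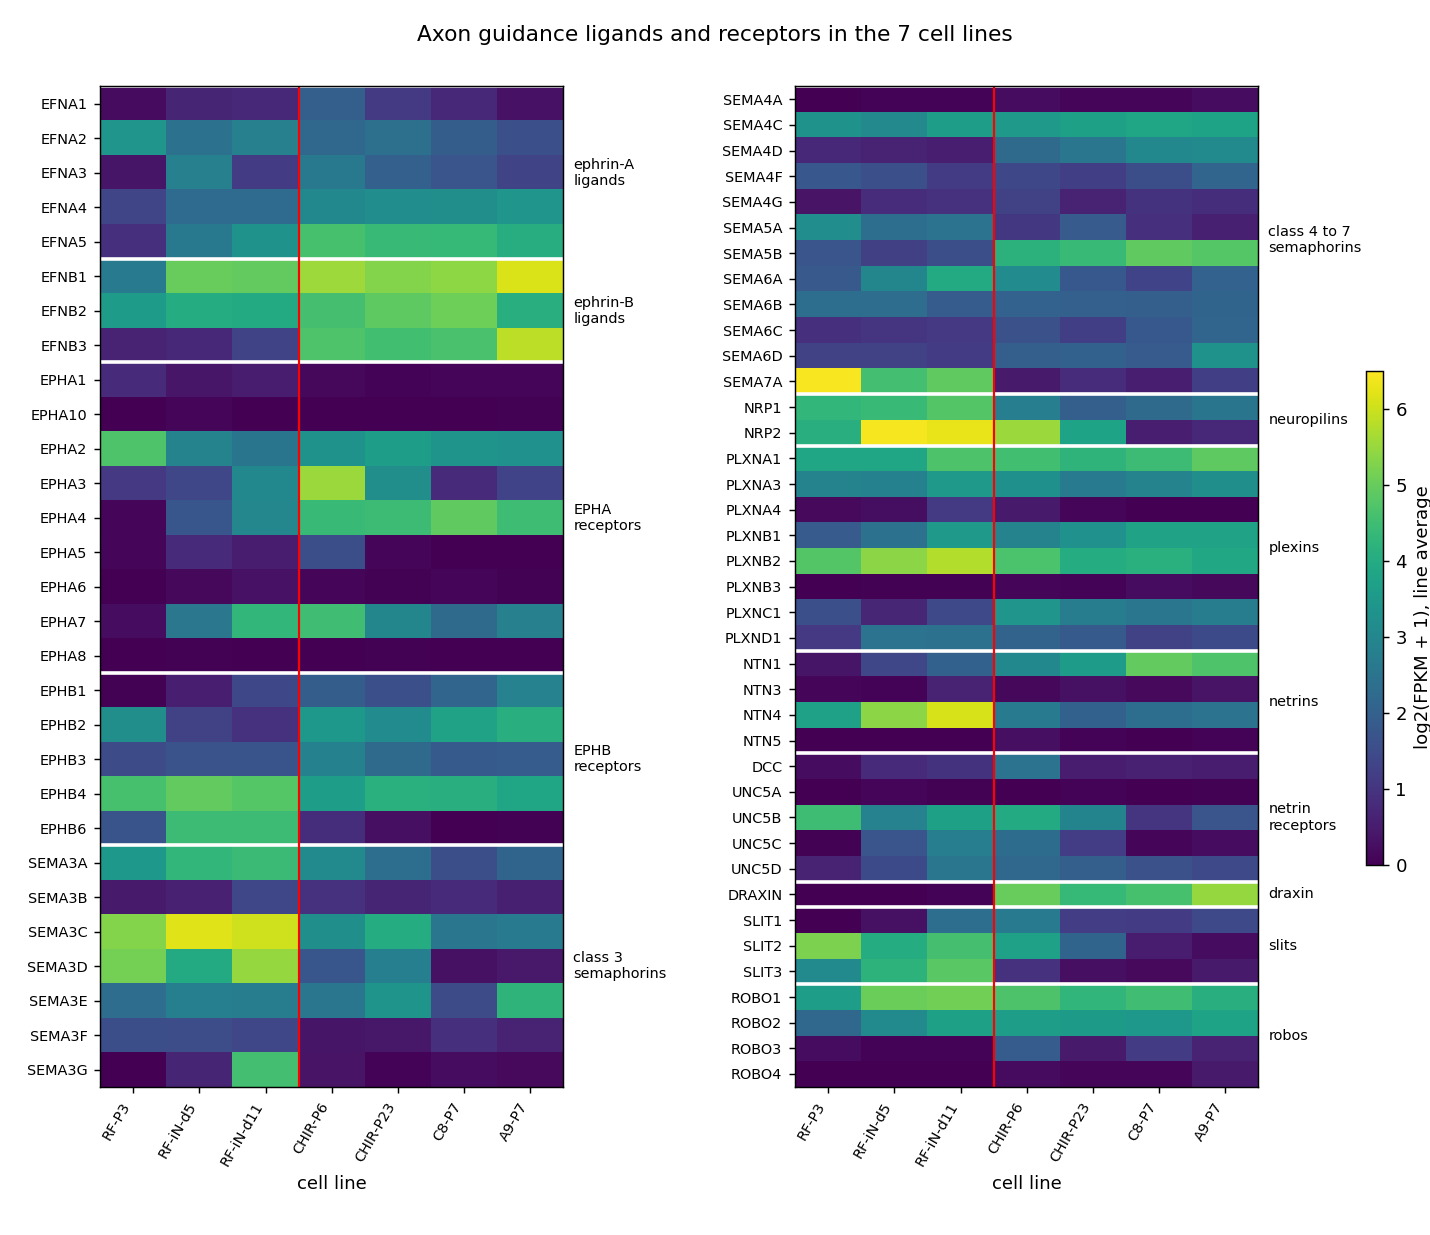
Levels of the 68 guidance genes as log2(FPKM + 1), 1 row per gene and 1 column per cell line (average of both libraries), grouped by family; the red line separates the 3 earlier from the 4 NESC lines. DRAXIN, EFNB3 and SEMA5B are dark to the left of the line and bright to the right, SEMA7A and SLIT3 the reverse, EPHB6 is bright only on the induction days, and NRP2 fades within the NESC lines.

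**Figure D2:**
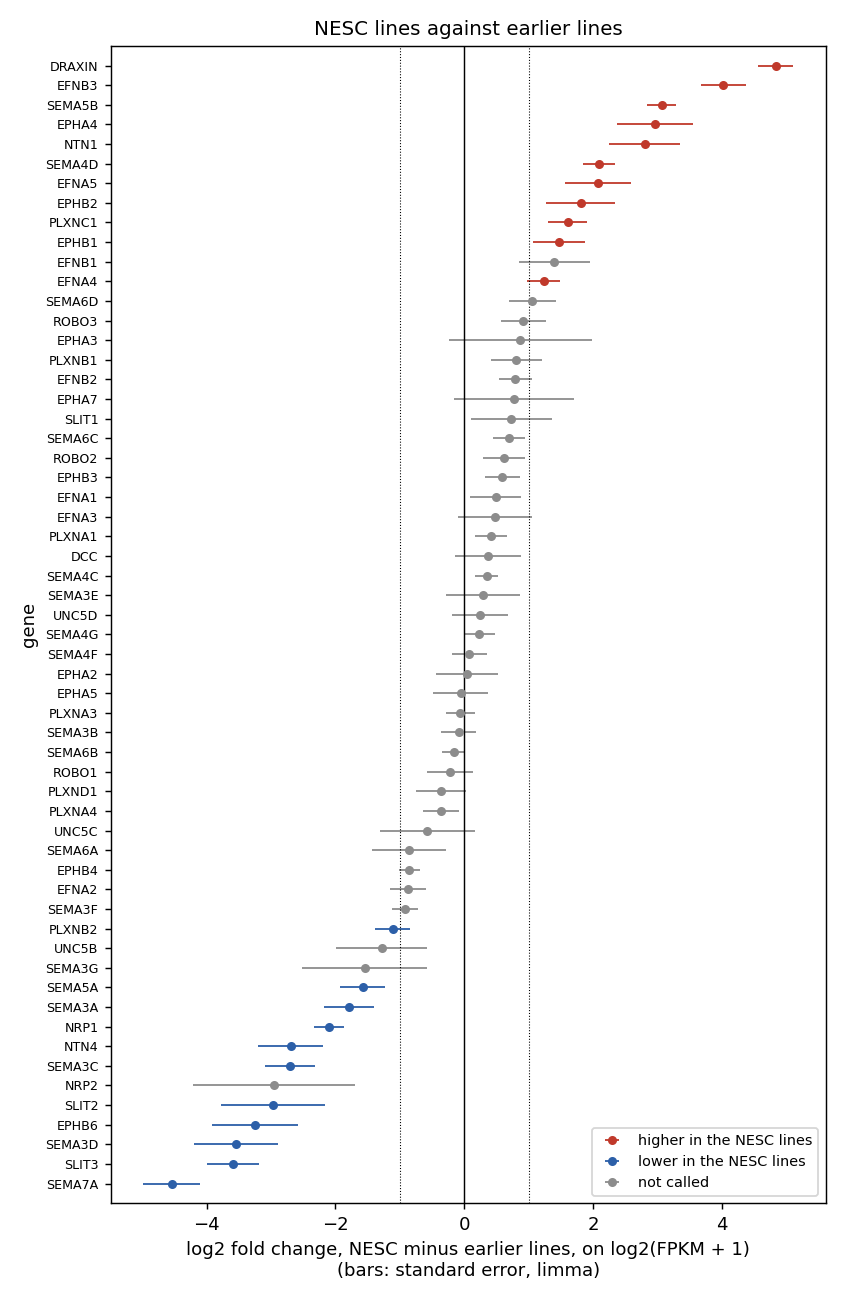
Log2 fold change of the NESC lines minus the earlier lines on log2(FPKM + 1) for the 58 genes tested, with the standard error from limma as bars and dotted lines at 1 and -1. The 11 genes that rose run from EFNA4 (1.24) to DRAXIN (4.84) and the 11 that fell from PLXNB2 (-1.11) to SEMA7A (-4.54).

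Of the 8 ephrins, the ligands of the Eph receptors, 3 rose and 5 were not called, and the B class held more of the summed level than the A class in every line. EFNB3, a transmembrane ligand of the neural tube, was at 0.555 FPKM in the fibroblasts, 0.690 FPKM on day 5 and 1.504 FPKM on day 11 of the induction. Its level was 25.3 FPKM at passage 6, 22.0 FPKM at passage 23, 23.9 FPKM in the colony C8-P7 and 56.6 FPKM in the colony A9-P7, and values are given in this order of lines from here on. The classes were far apart, with A9-P7 well above the other NESC lines, and the log2 fold change was 4.03 (SE 0.35, limma, adjusted p = 0.00029). EFNA5, which repels axons in the visual system of the mouse, was at 0.841, 5.17 and 9.10 FPKM in the earlier lines and at 23.2, 20.3, 19.5 and 15.6 FPKM in the NESC lines, without overlap (log2 2.08, SE 0.52, limma, adjusted p = 0.017). It grew through the induction and was highest in CHIR-P6. EFNA4 was at 1.55, 3.87 and 3.83 FPKM and then at 7.24, 8.07, 8.26 and 9.46 FPKM (log2 1.24, SE 0.26, limma, adjusted p = 0.0091). Without RF-P3 its log2 fold change was 0.93, under the limit.

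EFNB1, a ligand whose loss disturbs craniofacial development in humans, had the highest level of all ephrins in 6 of the 7 lines but did not pass the test. Its values were 5.33, 30.6 and 29.5 FPKM in the earlier lines and 45.7, 38.1, 40.8 and 69.0 FPKM in the NESC lines (log2 1.397, SE 0.55, limma, adjusted p = 0.081). The fibroblasts stood lowest and the level was higher by day 5, but all NESC lines still lay above all earlier lines. EFNB2, known from arteries as well as from the nervous system, was at 10.8, 15.3 and 14.7 FPKM and then at 22.8, 28.3, 32.5 and 15.7 FPKM, with an adjusted p of 0.042 (limma) but a log2 fold change of only 0.79 (SE 0.25). EFNA2 was the ephrin-A with the highest level in the fibroblasts, at 9.53, 4.50 and 6.11 FPKM in the earlier lines and 3.57, 4.24, 2.76 and 2.01 FPKM in the NESC lines, again with a log2 fold change short of the limit (-0.87, SE 0.28, limma, adjusted p = 0.045). EFNA3 was at 0.292, 6.06 and 1.19 FPKM and then at 5.13, 2.96, 2.30 and 1.54 FPKM, with peaks on day 5 and in CHIR-P6, and EFNA1 had its highest level, 2.90 FPKM, in CHIR-P6. EFNA1, EFNA3 and EFNA4 are next to each other on the chromosome in the RefSeq annotation, yet were highest in CHIR-P6, RF-iN-d5 and A9-P7. Summed over the family, ephrin-B levels were 16.7, 46.5 and 45.7 FPKM in the earlier lines and 88.5 to 141 FPKM in the NESC lines. Those of ephrin-A were 12.4, 20.2 and 20.9 FPKM in the earlier lines and 28.9 to 42.02 FPKM in the NESC lines.

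The Eph receptors, a large family of receptor tyrosine kinases, changed in composition rather than in one direction: of 10 tested, 3 rose and 1 fell. EPHA4, which binds ephrins of both classes, was at 0.0553, 2.31 and 6.99 FPKM in the earlier lines and at 20.1, 21.1, 29.3 and 21.5 FPKM in the NESC lines (log2 2.97, SE 0.59, limma, adjusted p = 0.0077). The NESC lines lay close together and above every earlier line. EPHB2, a receptor of ephrin-B, was at 8.28, 1.44 and 0.894 FPKM and then at 10.05, 7.86, 12.3 and 16.3 FPKM (log2 1.81, SE 0.53, limma, adjusted p = 0.032). Here the classes overlapped, since the fibroblasts were above CHIR-P23, and the call held only when no line or RF-P3 was left out (log2 1.37 to 1.96 without any of the others). EPHB1 was at 0.0274, 0.461 and 1.64 FPKM and then at 2.80, 2.02, 3.37 and 6.43 FPKM (log2 1.47, SE 0.41, limma, adjusted p = 0.025), a call that was lost without RF-P3, RF-iN-d5, C8-P7 or A9-P7 (log2 1.16 to 1.48).

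EPHB6, an Eph receptor without kinase activity, was the receptor of this family that fell. It was at 2.24, 21.1 and 21.02 FPKM in the earlier lines, at 0.806, 0.193 and 0.0325 FPKM in CHIR-P6, CHIR-P23 and A9-P7, and listed at 0 in C8-P7 (log2 -3.25, SE 0.67, limma, adjusted p = 0.0085). The high values belonged to the induction days and not to the fibroblasts. EPHB4, known for its part in veins, was at 23.3, 29.6 and 26.6 FPKM and then at 11.3, 16.4, 15.8 and 13.5 FPKM, without overlap and with an adjusted p of 0.0066 (limma), but its log2 fold change of -0.86 (SE 0.16) was short of the limit. EPHA2, a receptor of many epithelia, was highest in RF-P3 at 25.3 FPKM, against 6.44 and 4.72 FPKM in the induction days and 9.15, 11.6, 9.36 and 8.85 FPKM in the NESC lines, and did not pass the test (log2 0.04, SE 0.48, limma, adjusted p = 0.95). It made up 92.2% of the summed EPHA level of the fibroblasts.

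Other EPHA receptors had their highest level when the NESCs had just been obtained. EPHA3 was at 1.12, 1.60 and 7.24 FPKM in the earlier lines, at 45.3 FPKM in CHIR-P6, and at 8.31, 0.701 and 1.48 FPKM in the later lines. EPHA7 was at 0.161, 4.95 and 18.9 FPKM, at 21.9 FPKM in CHIR-P6, and at 6.96, 3.72 and 6.14 FPKM later. Both climbed through the induction and had dropped again by passage 23, so that neither passed the test of NESC against earlier lines (log2 0.87 and 0.78, SE 1.11 and 0.93, limma, adjusted p = 0.55 and 0.53). EPHA5 was above 1 FPKM only in CHIR-P6 (1.98). EPHB3 also had its highest level there, at 1.80, 2.17 and 2.23 FPKM in the earlier lines and at 6.31, 3.71, 2.58 and 2.68 FPKM in the NESC lines. The leading EPHA receptor by level thus differed between lines: EPHA2 in RF-P3 and RF-iN-d5, EPHA7 in RF-iN-d11, EPHA3 in CHIR-P6, and EPHA4 in the later lines, where it held 43.8% to 67.8% of the summed EPHA level. EPHA1, EPHA6, EPHA8 and EPHA10 stayed under 1 FPKM in every line.

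**Figure D3:**
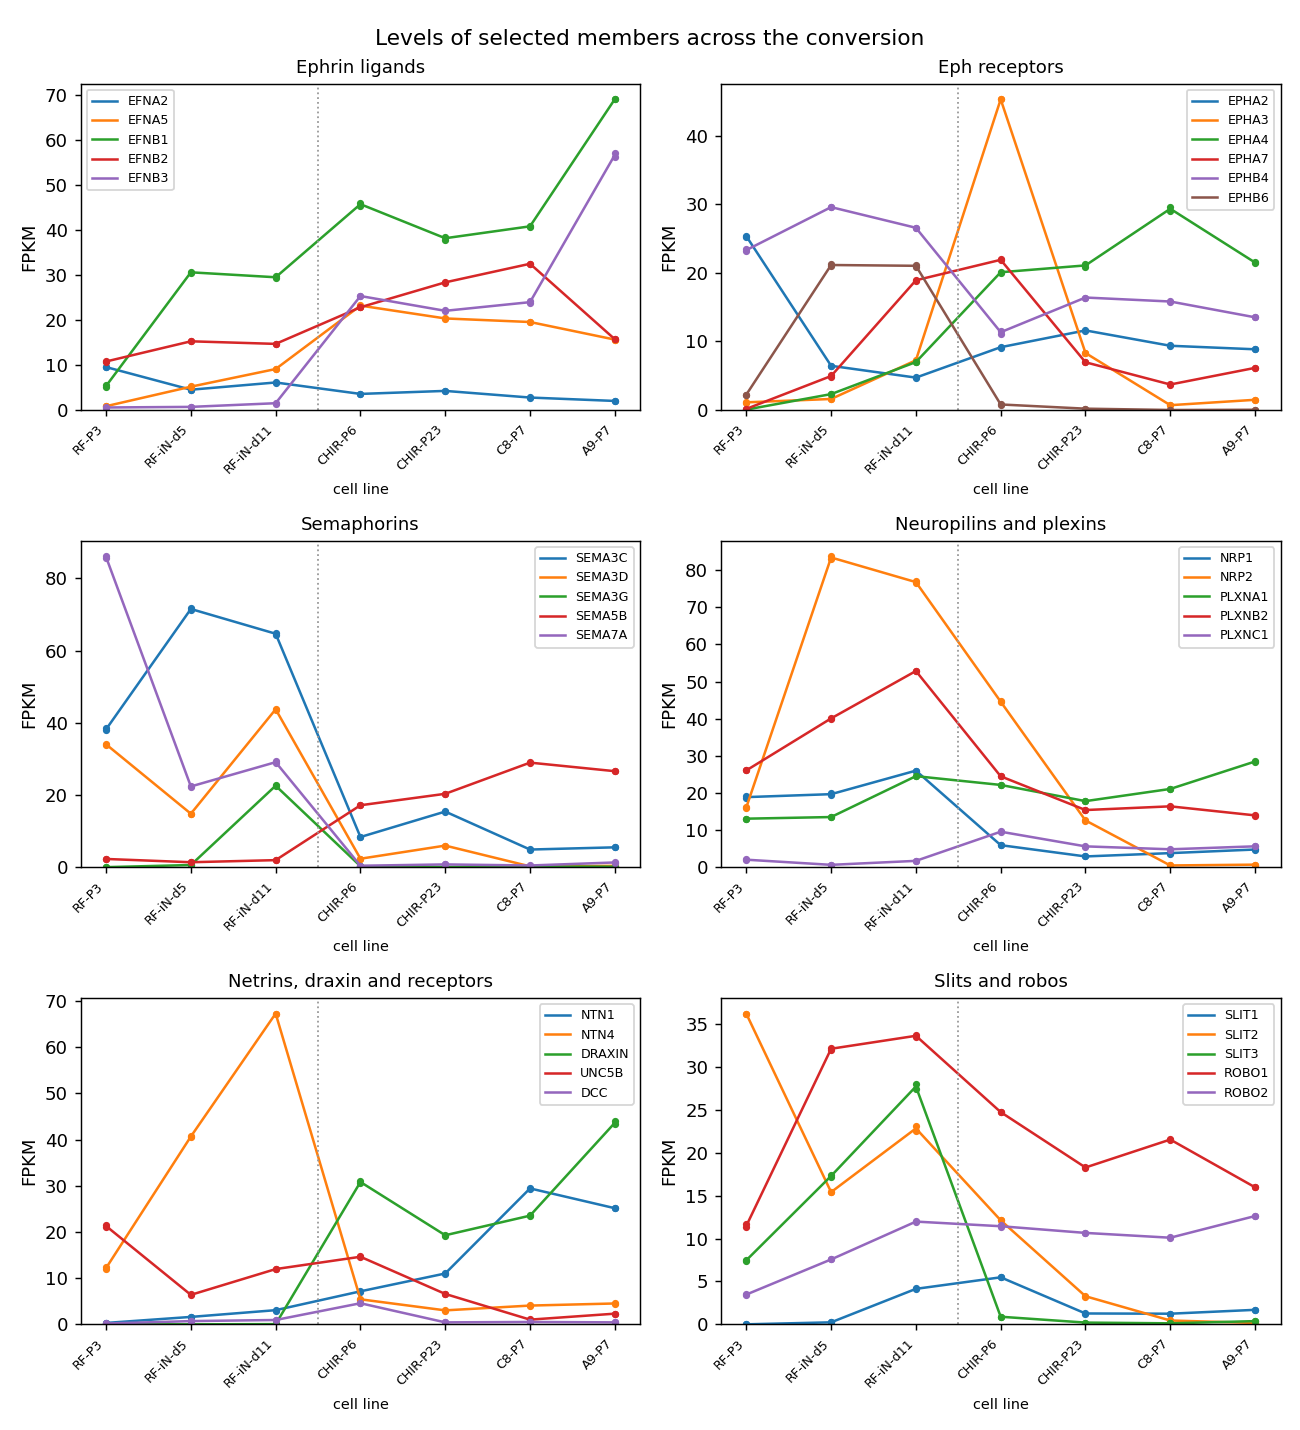
FPKM of selected guidance genes in the 7 cell lines, with lines through the averages and a point for each library; the dotted line separates earlier from NESC lines, and the segment joining C8-P7 and A9-P7 links sister colonies, not successive stages. EPHA3 and DCC have a single high point at CHIR-P6, NTN4 and SLIT3 were higher on both induction days than in the NESC lines, and both points of a line nearly coincide.

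Of 7 class 3 semaphorins, secreted ligands that mostly bind a neuropilin held with a plexin, 3 fell and 4 were not called. SEMA3C was at 38.2, 71.5 and 64.7 FPKM in the earlier lines and at 8.35, 15.4, 4.88 and 5.49 FPKM in the NESC lines (log2 -2.71, SE 0.38, limma, adjusted p = 0.0020). SEMA3D was at 34.03, 14.8 and 43.7 FPKM and then at 2.34, 5.97, 0.222 and 0.361 FPKM (log2 -3.55, SE 0.65, limma, adjusted p = 0.0056). In both, CHIR-P23 was the highest NESC line and the colonies grown from it were lower. SEMA3A, the best known repellent of sensory axons, was at 9.97, 18.9 and 20.7 FPKM and then at 7.60, 4.09, 1.96 and 3.27 FPKM (log2 -1.79, SE 0.39, limma, adjusted p = 0.011), with no overlap of the classes. SEMA3A, SEMA3D and SEMA3E are neighbours in the RefSeq annotation, but SEMA3E, which acts through PLXND1 on vessels, was not called (log2 0.29, SE 0.58, limma, adjusted p = 0.71) and differed widely among the NESC lines, at 3.97, 5.96 and 5.59 FPKM and then 4.85, 9.28, 1.79 and 17.7 FPKM.

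SEMA3G, a semaphorin of endothelial cells, stood at 22.6 FPKM in RF-iN-d11 alone, against 0.590 FPKM on day 5, a listed 0 in RF-P3 and 0.270, 0.0527, 0.164 and 0.118 FPKM in the NESC lines (log2 -1.54, SE 0.97, limma, adjusted p = 0.24). Of 7 endothelial markers, TEK was at 27.1 and 24.02 FPKM in RF-iN-d5 and RF-iN-d11 and under 2 FPKM elsewhere, PECAM1 at 1.47 and 2.95 FPKM and CDH5 at 1.06 and 1.29 FPKM on these days. KDR was at 3.42 and 9.22 FPKM on these days but also at 6.26 FPKM in CHIR-P6, while VWF, TIE1 and ESAM were under 1 FPKM in every line. The summed level of these markers was 2.83 to 38.4 FPKM in the earlier lines and 0.604 to 7.10 FPKM in the NESC lines, and their part in the levels of SEMA3G, EPHB6 and NRP2 was not tested. SEMA3F had an adjusted p of 0.012 (limma) with a log2 fold change of -0.92, its values being 1.61 to 1.96 FPKM in the earlier lines, highest in RF-P3, and 0.295 to 0.862 FPKM in the NESC lines. SEMA3B was at most at 1.63 FPKM, in RF-iN-d11.

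The semaphorins bound to the membrane, of classes 4 to 7, exchanged their leading gene. SEMA7A, which is held by a lipid anchor and acts through integrins and PLXNC1, was at 85.9, 22.4 and 29.1 FPKM in the earlier lines and at 0.390, 0.756, 0.459 and 1.30 FPKM in the NESC lines (log2 -4.54, SE 0.44, limma, adjusted p = 0.00046). It was the highest of the 68 genes in the fibroblasts and had the largest decrease. SEMA5B, a transmembrane semaphorin with thrombospondin repeats, was at 2.27, 1.36 and 1.94 FPKM and then at 17.1, 20.3, 29.0 and 26.6 FPKM (log2 3.07, SE 0.22, limma, adjusted p = 0.00014). Its relative SEMA5A went the other way, from 8.17, 4.08 and 4.58 FPKM to 1.07, 2.65, 0.867 and 0.475 FPKM (log2 -1.58, SE 0.35, limma, adjusted p = 0.012). SEMA4D, a ligand of PLXNB1 and PLXNB2, was at 0.695, 0.548 and 0.464 FPKM and then at 3.79, 4.84, 7.18 and 7.66 FPKM (log2 2.09, SE 0.25, limma, adjusted p = 0.0010). For these genes the earlier and NESC lines did not overlap.

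The other 7 tested genes of classes 4 to 7 were not called. SEMA4C, also a ligand of PLXNB2, varied little, with 9.04, 7.34 and 11.4 FPKM and then 10.3, 11.95, 13.04 and 12.6 FPKM (log2 0.35, SE 0.18, limma, adjusted p = 0.15). SEMA6A was at 2.52, 6.94 and 14.7 FPKM in the earlier lines and at 7.84, 2.46, 1.48 and 3.15 FPKM in the NESC lines, highest on day 11. SEMA6D was at 1.42, 1.45 and 1.17 FPKM and then at 2.91, 3.08, 2.63 and 8.91 FPKM, just short of the call (log2 1.06, SE 0.36, limma, adjusted p = 0.051). SEMA6B was highest in RF-P3 at 4.09 FPKM, SEMA6C and SEMA4F in A9-P7 at 3.38 and 3.32 FPKM, and SEMA4G in CHIR-P6 at 1.45 FPKM. SEMA4A stayed under 1 FPKM.

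Among the semaphorin receptors, both neuropilins were low in the single-cell colonies, but NRP1 was low in all NESC lines and lowest in CHIR-P23. NRP1, which also binds VEGF, was at 18.9, 19.7 and 26.01 FPKM in the earlier lines and at 5.92, 2.89, 3.78 and 4.76 FPKM in the NESC lines (log2 -2.10, SE 0.23, limma, adjusted p = 0.00072). NRP2 was at 16.1, 83.4 and 76.8 FPKM and then at 44.6, 12.6, 0.457 and 0.676 FPKM. It was highest on the induction days, still at 44.6 FPKM in CHIR-P6, above the fibroblasts, and under 1 FPKM only in C8-P7 and A9-P7, so that the classes overlapped (log2 -2.95, SE 1.26, limma, adjusted p = 0.0995). Without CHIR-P6 it was called lower (log2 -3.91). The summed level of the 10 fibroblast markers was 60.01 FPKM in CHIR-P6, the highest of the NESC lines, and its part in the NRP2 level was not tested.

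Of 7 plexins tested, the receptors that signal for semaphorins, 1 rose, 1 fell and 5 were not called. PLXNC1 was at 2.01, 0.624 and 1.70 FPKM and then at 9.55, 5.60, 4.81 and 5.61 FPKM (log2 1.61, SE 0.30, limma, adjusted p = 0.0056), so that this receptor rose where its ligand SEMA7A fell. PLXNB2 was at 26.1, 40.1 and 52.9 FPKM and then at 24.5, 15.4, 16.4 and 13.95 FPKM (log2 -1.11, SE 0.27, limma, adjusted p = 0.016). The fibroblasts were only just above CHIR-P6, and the call was lost without RF-iN-d5 (log2 -1.07) or RF-iN-d11 (log2 -0.88) and when libraries were rescaled to equal totals (log2 -0.99). PLXNA1, a partner of neuropilins, was the leading plexin of the later NESC lines, at 13.1, 13.5 and 24.5 FPKM and then 22.2, 17.8, 21.1 and 28.5 FPKM (log2 0.41, SE 0.25, limma, adjusted p = 0.22). PLXNB1, the receptor of SEMA4D, was at 2.64, 4.44 and 10.4 FPKM and then at 6.53, 8.70, 12.4 and 12.4 FPKM (log2 0.81, SE 0.40, limma, adjusted p = 0.14). PLXNA3 was at 6.55, 6.20 and 10.5 FPKM and then at 8.61, 5.57, 6.55 and 8.50 FPKM. PLXND1 was highest in RF-iN-d5 at 4.57 FPKM, PLXNA4 in RF-iN-d11 at 1.14 FPKM, and PLXNB3 was under 1 FPKM throughout.

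Of the netrins, secreted proteins related to laminins, 1 rose and 1 fell, so that the leading netrin changed from NTN4 to NTN1. NTN4, a netrin of basement membranes, was at 12.2, 40.7 and 67.3 FPKM in the earlier lines and at 5.42, 3.02, 4.06 and 4.52 FPKM in the NESC lines (log2 -2.69, SE 0.51, limma, adjusted p = 0.0060). NTN1, made by the floor plate and the ventricular zone of the neural tube, was at 0.298, 1.60 and 3.07 FPKM and then at 7.15, 11.01, 29.4 and 25.1 FPKM (log2 2.80, SE 0.55, limma, adjusted p = 0.0074). NTN4 made up 94.9% of the summed netrin level in RF-iN-d11, and NTN1 55.5% in CHIR-P6 and 87.6% in C8-P7. NTN3 and NTN5 were under 1 FPKM in every line. DRAXIN, a secreted repellent that binds netrin-1 and DCC, had the largest increase of all guidance genes. It was listed at 0 in RF-P3 and RF-iN-d5 and was at 0.0406 FPKM in RF-iN-d11, against 30.8, 19.3, 23.5 and 43.6 FPKM in the NESC lines (log2 4.84, SE 0.27, limma, adjusted p = 7.8e-05).

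None of the 4 netrin receptors tested was called by limma, and 0 had an unadjusted p under 0.05, beside 31 of the 58 guidance genes tested. The share of all genes under that unadjusted limit was not counted. UNC5B, a repulsive receptor also found on vessels, was at 21.3, 6.38 and 11.96 FPKM and then at 14.6, 6.58, 1.01 and 2.31 FPKM (log2 -1.28, SE 0.71, limma, adjusted p = 0.18). DCC, which mediates attraction to netrin-1, was at 0.169, 0.699 and 0.936 FPKM, at 4.57 FPKM in CHIR-P6, and at 0.423, 0.507 and 0.426 FPKM in the later lines. UNC5C was at 0.0306, 2.30 and 5.89 FPKM and then at 3.89, 1.27, 0.0719 and 0.153 FPKM, so that it was highest on day 11, as UNC5D was (4.85 FPKM), and UNC5A stayed under 1 FPKM. Summed over the 5 receptors, the level was 26.6 FPKM in CHIR-P6 and 3.63 and 4.63 FPKM in C8-P7 and A9-P7, the lines in which the netrins summed to 33.6 and 29.98 FPKM.

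Slits, secreted repellents that bind ROBO receptors, were mostly genes of the earlier lines, with 2 of 3 fallen. SLIT3 was at 7.47, 17.3 and 27.7 FPKM and then at 0.885, 0.202, 0.115 and 0.373 FPKM (log2 -3.59, SE 0.41, limma, adjusted p = 0.00084). SLIT2 was at 36.2, 15.4 and 22.8 FPKM and then at 12.1, 3.27, 0.446 and 0.160 FPKM (log2 -2.97, SE 0.81, limma, adjusted p = 0.024). SLIT3 was already low in CHIR-P6, whereas SLIT2 was still at 12.1 FPKM there and below 1 FPKM only in the colonies, and its call ended when any earlier line or either colony was left out (log2 -3.26 to -2.50). SLIT1, the slit most restricted to the nervous system, was listed at 0 in RF-P3, at 0.233 and 4.13 FPKM on the induction days, at 5.48 FPKM in CHIR-P6 and at 1.26, 1.24 and 1.69 FPKM later, and did not pass the test (log2 0.73, SE 0.63, limma, adjusted p = 0.38).

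The ROBO receptors were not called, with 1 of 3 at an unadjusted p under 0.05 in limma, beside 31 of the 58 guidance genes tested. How many of all genes were under this unadjusted limit was not counted. ROBO1 was at 11.5, 32.1 and 33.6 FPKM and then at 24.7, 18.3, 21.5 and 16.0 FPKM (log2 -0.22, SE 0.36, limma, adjusted p = 0.65). ROBO2 was at 3.47, 7.57 and 11.97 FPKM and then at 11.4, 10.7, 10.1 and 12.6 FPKM (log2 0.62, SE 0.33, limma, adjusted p = 0.17). For both, the fibroblasts were lowest and the other lines overlapped, and in the later NESC lines the ROBO receptors summed to 29.4 to 32.9 FPKM beside slits of 1.80 to 4.74 FPKM. ROBO3, a receptor of commissural neurons, stayed below 0.2 FPKM before the NESC stage and was at 2.68, 0.378, 1.19 and 0.572 FPKM from then on (log2 0.92, SE 0.35, limma, adjusted p = 0.071), and ROBO4 of endothelial cells was under 1 FPKM throughout.

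By stage, 14 of the 58 tested genes had their highest average in RF-iN-d11 (24.1%, against 14.4% of all genes tested) and 11 in CHIR-P6 (19.0% against 9.29%). SEMA3B, SEMA3G and PLXNA4 passed the minimum level only through RF-iN-d11, and DCC, EPHA5 and SEMA4G only through CHIR-P6. The filter thus fixed the highest line of these genes. All genes tested had passed the same filter. Only 8 were highest in RF-P3 (13.8% against 26.0%), 6 each on day 5 and in C8-P7 (10.3% against 14.04% and 15.1%), 13 in A9-P7 (22.4% against 14.8%) and 0 in CHIR-P23, where 6.40% of all genes were highest. The following steps compare 1 averaged sample with another, have no test, and count differences of at least 2-fold on log2(FPKM + 1). From RF-P3 to RF-iN-d5, 14 guidance genes were higher and 6 lower (24.1% and 10.3%, against 9.37% and 8.42% of all genes). The largest differences upwards were those of EPHB6 (log2 2.77), EFNA3 (2.45), EPHA7 (2.36), EFNB1 (2.32) and NRP2 (2.30), and downwards those of EPHB2 (-1.93), SEMA7A (-1.90) and EPHA2 (-1.82). Between days 5 and 11, 9 were higher, among them SEMA3G (3.89) and SLIT1 (2.06), and only EFNA3 was lower (15.5% and 1.72%, against 2.85% and 2.52%).

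In CHIR-P6, 16 guidance genes stood higher and 13 lower than on day 11 (27.6% and 22.4%, against 8.49% and 13.1% of all genes). Those higher included DRAXIN (log2 4.93), EFNB3 (3.39), SEMA5B (2.62), EPHB2 (2.54) and EPHA3 (2.49), and those lower SEMA7A (-4.44), SEMA3G (-4.21), SLIT3 (-3.93), SEMA3D (-3.74) and EPHB6 (-3.61). From CHIR-P6 to CHIR-P23 the picture was one of loss, with 11 lower and only SEMA3D higher (19.0% and 1.72%, against 4.28% and 1.39%). EPHA3 (-2.31), DCC (-1.97), NRP2 (-1.75), SLIT2 (-1.62), EPHA7 (-1.52), SLIT1 (-1.52), EPHA5 (-1.47) and ROBO3 (-1.42) were among the 11. CHIR-P6 was also the line with the highest levels of several markers of young neurons, NEUROG2 at 6.14, ELAVL3 at 4.25, NEUROD1 at 2.43 and ELAVL4 at 1.07 FPKM, as well as SNAP25 at 5.07 FPKM. Others of the 10 neuronal markers were not highest there: GAP43 had its lowest level in CHIR-P6 (11.2 FPKM against 12.5 to 73.6 FPKM in the other lines), and SYT1, at 8.07 FPKM in CHIR-P6, had 10.96, 16.98 and 21.4 FPKM before the NESC stage. DCX was at 4.91 FPKM there and at 5.39 FPKM in A9-P7, RBFOX3 under 1 FPKM in every line, and the list of 10 neuronal markers summed to 70.5 to 800.1 FPKM in the earlier lines, of which STMN2 held 705 FPKM in RF-iN-d5, and to 33.2 to 82.3 FPKM in the NESC lines. Their part in the levels of DCC, ROBO3 and the EPHA receptors was not tested.

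The single-cell colonies are set beside the passage 23 culture and beside each other. Against CHIR-P23, 1 guidance gene was higher and 8 lower in C8-P7 (1.72% and 13.8%, against 1.04% and 2.39% of all genes), and 5 were higher and 7 lower in A9-P7 (8.62% and 12.1%, against 1.57% and 2.59%). NRP2 had the largest difference in both, from 12.6 FPKM in CHIR-P23 to 0.457 and 0.676 FPKM. SEMA3D, EPHA3, SLIT2, SEMA3C and UNC5B were each lower in C8-P7 (log2 -2.51, -2.45, -1.56, -1.48 and -1.91) and in A9-P7 (-2.36, -1.91, -1.88, -1.34 and -1.20), and NTN1 was higher (1.34 and 1.12). Both colonies come from the same culture, so these comparisons share CHIR-P23. Between the colonies, 4 guidance genes were 2-fold apart. SEMA3E was at 17.7 FPKM in A9-P7 and 1.79 FPKM in C8-P7, EFNB3 at 56.6 and 23.9 FPKM, and SEMA6D at 8.91 and 2.63 FPKM. EFNB2 was at 15.7 FPKM in A9-P7 and at 32.5 FPKM in C8-P7. These are 5.17% higher and 1.72% lower in A9-P7, where 1.33% and 1.19% of all genes were, and the ephrin-B ligands thus differed in opposite directions.

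**Figure D4:**
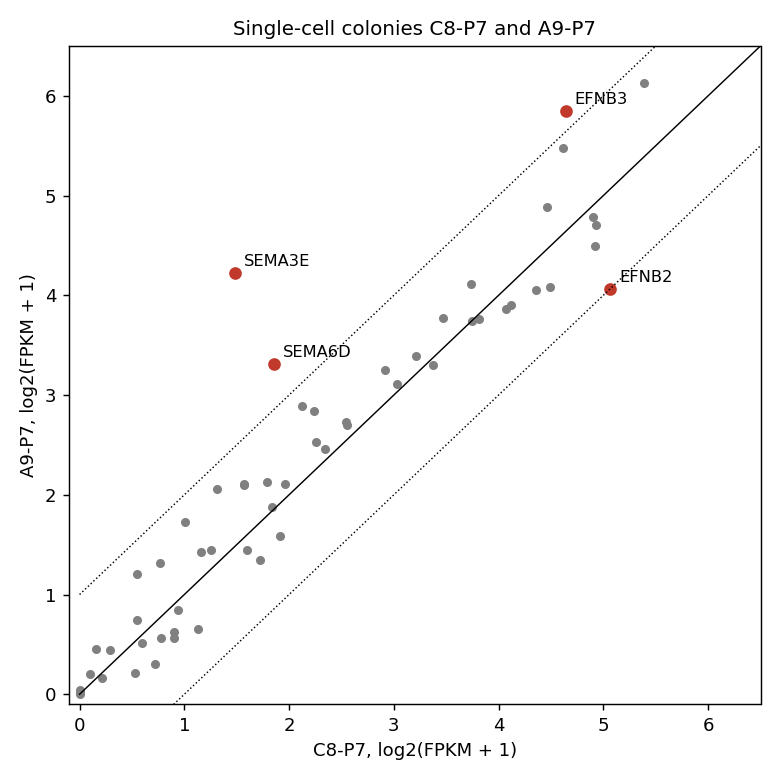
Levels of the 58 tested guidance genes in the colonies C8-P7 (horizontal axis) and A9-P7 (vertical axis) as log2(FPKM + 1), each point 1 gene and the average of both libraries; dotted lines mark 2-fold. SEMA3E, SEMA6D and EFNB3 lie above the band and EFNB2 at its lower edge, and the other genes lie within it.

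A list of 59 partners and effectors of these receptors, written from general knowledge, was read in the same test: of 58 tested, 10 rose (17.2% against 7.57% of all genes), 7 fell (12.1% against 13.2%) and 41 did not pass, with a median log2 difference of -0.16. DPYSL5, a collapsin response mediator that links semaphorin receptors to microtubules, was at 0.756, 8.84 and 10.2 FPKM and then at 54.02, 90.2, 130 and 121 FPKM (log2 4.03, SE 0.65, limma, adjusted p = 0.0033). RND2, a small GTPase of migrating neurons, was at 1.04, 1.66 and 2.06 FPKM and then at 13.6, 27.1, 37.7 and 56.7 FPKM (log2 3.60, SE 0.43, limma, adjusted p = 0.0010). RGMA, a repellent that binds the DCC relative neogenin, was at 1.88, 5.31 and 8.22 FPKM and then at 50.7, 62.1, 85.3 and 67.0 FPKM (log2 3.58, SE 0.38, limma, adjusted p = 0.00062). Neogenin itself (NEO1), named here after its values were seen, rose by a log2 of 1.09 (SE 0.28, limma, adjusted p = 0.021). The largest decrease was that of FLRT2, an adhesion protein that binds UNC5 receptors, from 12.4, 11.6 and 10.5 FPKM to 0.7999, 0.251 and 0.0415 FPKM in CHIR-P6, CHIR-P23 and A9-P7 and a listed 0 in C8-P7 (log2 -3.33, SE 0.24, limma, adjusted p = 0.00014). RRAS, a small GTPase on which plexins act, was at 47.9, 38.0 and 24.6 FPKM and then at 3.81, 2.69, 2.15 and 2.86 FPKM (log2 -3.25, SE 0.25, limma, adjusted p = 0.00017). MICAL2, an enzyme that oxidizes actin, was at 43.2, 8.82 and 1.19 FPKM and then at 0.318, 0.202, 0.0751 and 0.0157 FPKM, most of its decline falling within the induction (log2 -3.10, SE 0.86, limma, adjusted p = 0.026).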

How the data were processed

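Total RNA was sequenced after removal of ribosomal RNA, with 2 libraries for each of 7 cell lines. The submitters' processing notes name HISAT2 2.1.0 and, for the deposited FPKM, Cufflinks 2.2.1 with Cuffnorm 2.2.1, and the genome build Mmul_8.0.1. Strand use is not given in the sources used here, so reads of overlapping genes cannot be separated. For 28445 loci (1202 to 29646) the values stood a row below their label and were moved back, and 49 labels were left out. Of 1627 genes whose line averages the study lists, 144 matched before and 1481 after this step (within 0.3 on log2(FPKM + 1)), among them 0 and 5 of 5 guidance genes. Counting noise was checked in 6519 genes whose FPKM are whole multiples of a step (within 0.1 or 2%). Simulated independent pairs gave 1.11 and pairs sharing most fragments 0.187. Since every pair was below 0.142, libraries were averaged and each line was 1 sample.

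Limma 3.58.1 (R 4.3.3) was fitted with a trend of variance on level to the 15024 genes with 2 or more libraries at 1 FPKM or above, with Benjamini-Hochberg adjustment over all of them. On simulated averages of 15024 genes, 78% of changes of log2 1.5 and 82% of log2 2 were recovered, with 9 false calls among the genes left unchanged. Changes were placed only in genes with a mean log2(FPKM + 1) above 2, so recovery at lower levels was not simulated. The simulated noise was independent between lines, unlike successive stages. Genes called or at 5 FPKM or more in a line average are described with their averages, and others by their highest line or by name. Of the list of partners, the 3 called genes with the largest change in each direction are named. The genes, the lists and the tests were chosen with earlier results of these data known. Chromosomal neighbours are from RefSeq (T2T-MMU8v2.0), where 68 of the 68 symbols matched. Alternative pseudocounts, filters, scalings, single libraries and left-out lines were run. Python 3.11.15, NumPy 2.4.6, pandas 2.3.3 and Matplotlib 3.10.9 were used.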

Additional observations from a re-analysis of the deposited data

Results flagged for a closer look

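Among the 4 NESC lines, 4 of the 58 guidance genes had 1 line far from the others, measured as its gap to the nearest line over the whole range on log2(FPKM + 1). The limit used passes about 1 gene in 20 for independent, normally distributed draws. Colonies C8-P7 and A9-P7 were grown from CHIR-P23, so that rate need not hold here. The share of all genes past the limit was not computed. DCC and EPHA5 were high in CHIR-P6 (gap 0.958 and 0.932 of the range, at 4.57 and 1.98 FPKM). Both passed the minimum level of the test only through CHIR-P6, so their place among the 58 rests on the same high value. SEMA6D and EFNB3 were high in A9-P7 (gap 0.884 and 0.855 of the range, at 8.91 and 56.6 FPKM).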

How the results depend on the processing

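No paired analysis was possible because both libraries of a line were averaged and counted as 1 sample. The 11 risen genes were 7 with a pseudocount of 5 and 7 with values as labelled in the table, and 9 to 11 without 1 line. The 11 fallen genes were 3 with values as labelled, and 9 to 12 without 1 line. Some genes not called gained a call when 1 line was left out. These were PLXNB1 (higher, without RF-iN-d11), EFNA2 (lower, without RF-iN-d5), SEMA3F (lower, without C8-P7) and NRP2 (lower, without CHIR-P6). With values as labelled, the direction turned for NTN4 (log2 3.04), PLXNB2 (0.82), SEMA5A (0.32) and SLIT2 (0.75), because each label then carries the value of its neighbour. Of the 22 called genes, 22 kept their call with a pseudocount of 0.1, 16 with a pseudocount of 5 (not EFNA4, EPHB1, PLXNB2, PLXNC1, SEMA4D and SEMA5A), 19 with no filter (not EPHB1, EPHB2 and SLIT2), 18 to 21 without 1 line, 21 after quantile normalization, and 22 with either library alone. The 2-fold counts moved with the pseudocount. With 0.1 and 5, the counts were 24 and 6 higher on day 5 than in RF-P3, 15 and 3 higher on day 11 than on day 5, 2 and 0 higher and 18 and 4 lower in CHIR-P23 than in CHIR-P6. With 5, 0 were lower on day 11 than on day 5 and 7 were higher in CHIR-P6 than on day 11. Quantile normalization gave 2 higher in CHIR-P23 than in CHIR-P6. Over all genes the median log2 difference became 0.15 after quantile normalization and 0.09 with equal totals. Low levels are least certain in RF-P3, the shallowest line.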
